A study of Chromochloris zofingiensis with 38 samples.

Results

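HXK1 is the hexokinase gene with the identifier Cz13g07170 in the unicellular green alga Chromochloris zofingiensis. It was chosen by that identifier, and it is 1 row of the 12459 in the deposited table of estimated counts per gene. RNA was sequenced from wild-type cells at 1 h and at 24 h of 5 treatments, in a study of inhibition of the TOR kinase and of glucose addition. The titles label the treatments None (no addition), Glu (glucose), AZD (the TOR inhibitor), S and GA, and neither S nor GA is spelled out. GA carries the initials of glucose and AZD, and whether it holds both is not stated. All groups share the wild-type genotype, and each library came from a pelleted culture. Of the 10 groups, 8 held 4 libraries, and AZD at 1 h held 3, as did GA at 24 h, so that 38 libraries entered. Whether the identifier belongs to a hexokinase rests on the label alone, since the table pairs no identifier with a product.

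Hexokinases transfer a phosphate from ATP to glucose, which commits the sugar to glycolysis, starch synthesis or the pentose phosphate pathway. In the land plant Arabidopsis, a hexokinase also acts as a glucose sensor apart from its enzyme activity. In C. zofingiensis, glucose switches off photosynthesis and brings on storage lipid, and mutants of HXK1 lack this switch. TOR is a protein kinase that promotes growth when nutrients are plentiful. The question for this gene is how its transcript level followed glucose, the TOR inhibitor and the treatments labelled S and GA.

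Library totals ran from 12414641 to 106150530 counts. HXK1 held 15716 to 164266 counts per library at 1 h and 383 to 19307 at 24 h, so the counting error of 1 library was 0.247 to 0.798% at 1 h and 0.720 to 5.11% at 24 h. Levels below are CPM, the count of a gene relative to the total of its library after scaling by TMM factors, which set a trimmed mean of the log ratios between libraries to no change. S replicate 1 and Glu replicate 4 at 1 h stood apart from their groups over all genes, at a root mean square log2 distance of 0.75 and 0.70 from the other libraries of the group, against 0.29 to 0.58 for the other 36. Titles at 1 h and at 24 h carry different prefixes, for which reason the level at one time was not tested against that at the other. Separate cultures are not named for the replicates, and p-values measure the spread between these libraries, which may be technical. In pooled cells, fewer cells that express a gene and less of its RNA per cell cannot be told apart.

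At 1 h HXK1 was highest in GA and Glu and lowest in None. The None libraries, replicates 1 to 4, held 564, 619.9, 626 and 586 CPM, a mean of 599 ± 29.4 (SD, n = 4). The Glu libraries held 2258, 2602, 1696 and 2169.5 CPM (2181 ± 373, n = 4). Every Glu library lay above every None library, with none in between. The 3 AZD libraries held 1066, 1087 and 947 CPM (1034 ± 75.4, n = 3), above None and below Glu with no overlap. The GA libraries held 3254, 3520.1, 2726 and 2267 CPM (2942 ± 558, n = 4), and their lowest value fell inside the range of Glu. The S libraries held 374, 1099.7, 1016 and 986 CPM (869 ± 333, n = 4). S was split, with replicate 1 below every None library and the other replicates, at 1034 ± 58.9 CPM (n = 3), within or beside the range of AZD.

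By 24 h the order had changed, with Glu alone at the top and AZD and GA together at the bottom. The None libraries held 51.5, 48.9, 62.0 and 61.4 CPM (56.0 ± 6.75, n = 4), and the S libraries 57.2, 47.2, 44.8 and 43.4 CPM (48.2 ± 6.25, n = 4). These groups overlapped. The Glu libraries held 197, 180.0, 247 and 188 CPM (203 ± 30.3, n = 4), all above every library of the other treatments. The AZD libraries held 15.7, 20.4, 17.9 and 24.2 CPM (19.5 ± 3.66, n = 4). The 3 GA libraries, which carry the numbers 1, 3 and 4, held 21.5, 23.4 and 26.5 CPM (23.8 ± 2.55, n = 3). AZD and GA overlapped each other, and each lay wholly below None and S.

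**Figure D1:**
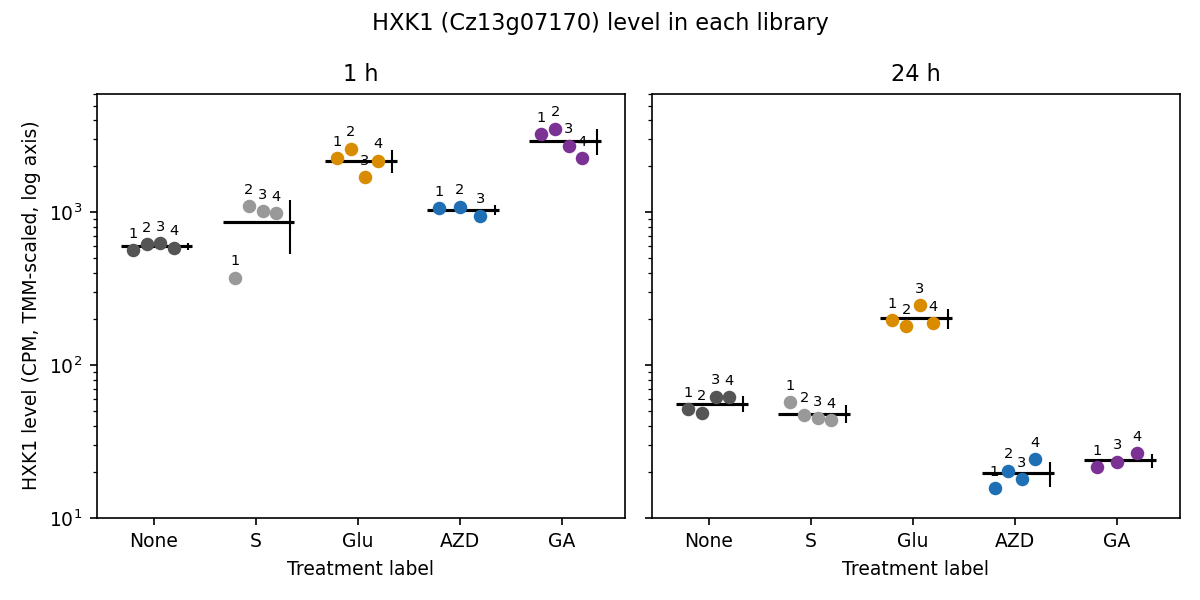
HXK1 level in each library on a log axis, in CPM, by treatment at 1 h and 24 h. Points are libraries with their replicate number, horizontal bars are group means and vertical bars are 1 SD; GA joins Glu at the top at 1 h and joins AZD at the bottom at 24 h, and S replicate 1 at 1 h lies apart at 374 CPM.

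The levels at the 2 times stood far apart in every treatment. The mean at 1 h was 10.7 times that at 24 h in None and 10.7 times in Glu. The same ratio was 18.0 in S, 52.9 in AZD and 124 in GA. These ratios were not tested, and the time and the title prefix cannot be told apart in them. Their size depends on the TMM factors, which were 0.57 to 0.66 in GA at 1 h and 0.90 to 1.04 at 24 h. With library totals alone the GA libraries held 1505 to 2005 CPM at 1 h and 19.3 to 24.3 CPM at 24 h. The mean of S at 1 h includes replicate 1.

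HXK1 rose in glucose at both times, and no difference between these rises was detected. In Glu against None the gene rose 3.64-fold at 1 h, with a log2 fold change of 1.86 ± 0.21 (approximate SE; edgeR adjusted p = 1.32e-08), in a comparison that called 31.1% of the 12142 genes tested. At 24 h it rose 3.63-fold, again 1.86 ± 0.21 on the log2 scale (adjusted p = 1.55e-09), where 68.8% of genes were called. The difference between these responses was -0.01 ± 0.29, with a 95% interval of -0.59 to 0.58 (adjusted p = 0.988, 56.6% of genes called). In terms of fold, this interval runs from 0.662 to 1.496. Without S replicate 1 and Glu replicate 4 the rise at 1 h was 1.87. Against S in place of None the rise was 1.33 ± 0.21 at 1 h (adjusted p = 5.30e-06, 27.7% called), or 1.06 without S replicate 1 (adjusted p = 3.88e-06), and 2.08 ± 0.21 at 24 h (adjusted p = 1.59e-10, 68.7% called).

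Under the TOR inhibitor HXK1 rose at 1 h and fell at 24 h, measured against None. At 1 h it rose 1.73-fold, with a log2 fold change of 0.79 ± 0.22 (adjusted p = 0.00253, 55.7% of genes called). The model held no term for the replicate number. With such a term (the replicate block) the early rise was 0.78 (edgeR adjusted p = 0.00524). At 24 h HXK1 fell to 0.349 of the level in None, a log2 fold change of -1.52 ± 0.21 (adjusted p = 7.61e-08, 73.4% called). The responses at the 2 times differed by -2.31 ± 0.30 (adjusted p = 4.29e-08, 62% called). Against S in place of None the log2 differences were 0.25 at 1 h and -1.30 at 24 h, and their change between the times was not tested. The early rise lost its call under another scaling. With library totals alone it was 0.31 (adjusted p = 0.14), in a setting where the median of all genes moved from 0.11 to -0.37. HXK1 lay 0.68 above that median under either scaling. A change of scaling moves all genes of a comparison nearly alike, so this distance cannot show which scaling is right.

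S lay between None and AZD in mean level at 1 h, and its difference from neither passed the test. In S against None the log2 difference at 1 h was 0.54 ± 0.20, with a 95% interval of 0.12 to 0.95, and it missed the threshold (adjusted p = 0.293), where 0.0659% of genes were called. Without S replicate 1 it was 0.78 (adjusted p = 0.00991) and passed. AZD against S at 1 h was 0.25 ± 0.22, with an interval of -0.19 to 0.69 (adjusted p = 0.342, 53.9% called), and -0.10 without S replicate 1 (adjusted p = 0.652). An early rise under the inhibitor was thus called against None and not detected against S. At 24 h S against None was -0.22 ± 0.20, with an interval of -0.63 to 0.20 (adjusted p = 0.846, 0.955% called). AZD against S at 24 h was -1.30 ± 0.21 (adjusted p = 1.25e-06, 72.7% called), so the late fall was measured against both.

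GA lay near or above Glu at 1 h and far below it at 24 h. In GA against Glu at 1 h the log2 difference was 0.43 ± 0.20, with an interval of 0.02 to 0.84, and missed the threshold (adjusted p = 0.0666, 58.3% of genes called). It passed without Glu replicate 2, at 0.53 (adjusted p = 0.0413), and without both S replicate 1 and Glu replicate 4, at 0.43 (adjusted p = 0.0168). Without GA replicate 2 it was 0.21 (adjusted p = 0.431), and without GA replicate 1 it was 0.25 (adjusted p = 0.337). It was -0.09 with library totals alone (adjusted p = 0.674), where the median of all genes moved from 0.10 to -0.40. Relative to that median HXK1 lay 0.33 higher under TMM and 0.32 higher under totals. This near equality follows from how a change of scaling works, and it does not decide between the scalings. At 24 h HXK1 fell in GA to 0.117 of its level in Glu, a log2 fold change of -3.09 ± 0.25 (adjusted p = 3.65e-13, 76.3% called). The change of this difference between the times was -3.52 ± 0.31 (adjusted p = 1.46e-11, 65.8% called).

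Read from the side of AZD, GA held a rise at 1 h that was not detected at 24 h. In GA against AZD HXK1 rose 2.85-fold at 1 h, with a log2 fold change of 1.51 ± 0.23 (adjusted p = 2.99e-06, 39.7% called). At 24 h the difference was 0.28 ± 0.22, with an interval of -0.16 to 0.73 (adjusted p = 0.305, 46.5% called). The change between the times, tested after these values were seen, was -1.22 ± 0.32 (adjusted p = 0.00202, 42.4% called). The contrast of GA minus Glu with AZD minus None was -0.36 ± 0.30 at 1 h, with an interval of -0.96 to 0.25 (adjusted p = 0.491, 4.51% called), so a departure from additive log2 values was not detected there. At 24 h it was -1.57 ± 0.30 (adjusted p = 5.15e-05, 52.9% called), which means that HXK1 in GA stood 2.98-fold below the sum of the log2 responses in Glu and in AZD. If GA is not glucose together with AZD, this contrast says nothing of the pair acting jointly. Its change between the times, added after seeing the data, was -1.22 ± 0.42 (adjusted p = 0.0185, 46.9% called).

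**Figure D2:**
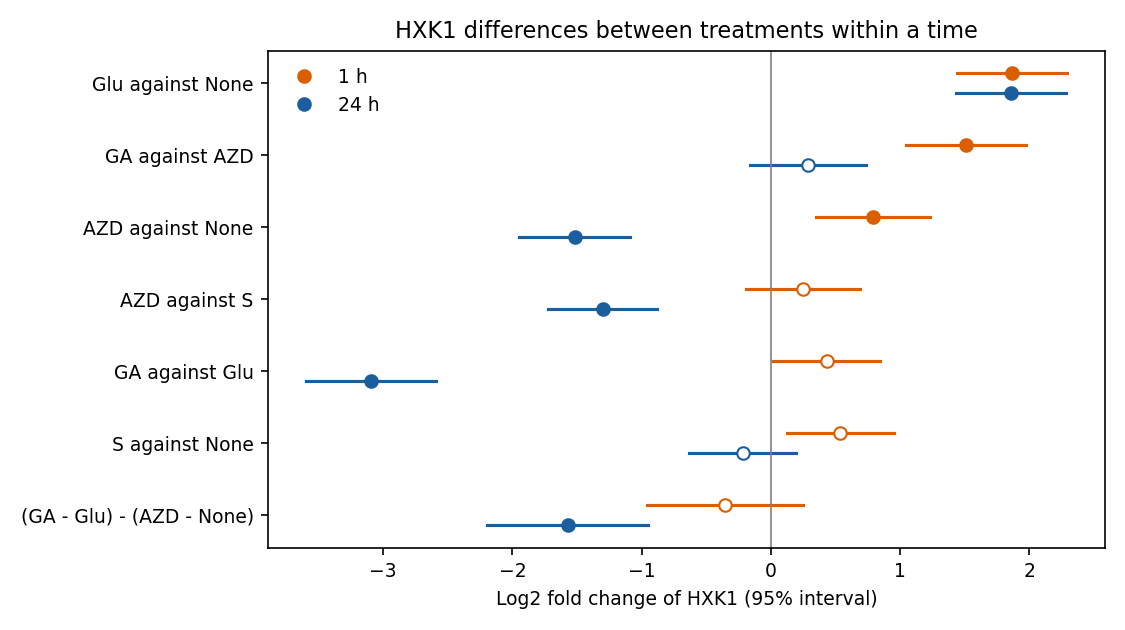
Log2 fold changes of HXK1 in 6 pairwise comparisons and in the contrast of GA minus Glu with AZD minus None, at 1 h (orange) and 24 h (blue), with 95% intervals as lines. Filled points passed an adjusted p of 0.05; the rise in Glu is 1.86 at both times, while AZD against None goes from 0.79 to -1.52 and GA against Glu from 0.43 to -3.09.

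The 5 levels at each time could be ordered in part. At 1 h GA, Glu, AZD, S and None followed each other from high to low, and of the neighbours in this order Glu and AZD differed, with AZD against Glu at -1.08 ± 0.22 on the log2 scale (adjusted p = 0.000125, 55.1% of genes called in that pair). GA against Glu, AZD against S and S against None missed the adjusted threshold, though the unadjusted p was 0.0404 for GA against Glu and 0.0122 for S against None in edgeR. HXK1 was also higher in GA than in None by 2.30 ± 0.21 (adjusted p = 1.73e-11, 66.7% called) and than in S by 1.76 ± 0.21 (adjusted p = 4.71e-09, 65.6% called), or 1.37 without S replicate 1 (adjusted p = 4.65e-09). With library totals alone, GA against None was 1.31 and GA against S 0.95. In that setting GA against Glu was -0.09 and AZD against S -0.05, the reverse of the order above. Without S replicate 1, AZD against S was -0.10. At 24 h the order was Glu, None, S, GA and AZD. Glu and None differed as given above, and S and GA differed, with GA against S at -1.02 ± 0.23 (adjusted p = 0.000149, 75% called). None and S, and GA and AZD, missed the threshold. GA against None was -1.23 ± 0.23 (adjusted p = 1.11e-05, 75.7% called), and AZD against Glu gave the widest gap of the pairs, -3.38 ± 0.22 (adjusted p = 2.70e-15, 77.5% called), about 10.4-fold.

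In all, 15 of the 20 treatment pairs passed the test for HXK1, 7 at 1 h and 8 at 24 h, and in the same 15 pairs the libraries of the groups did not overlap. Over all genes, the share called in a pair ran from 0.0659 to 66.7% at 1 h and from 0.955 to 77.5% at 24 h. Neither overlap nor the number of pairs called per gene was counted for other genes. Whether 15 of 20 is unusual is therefore not known. The lack of overlap fixes an exact two-sided permutation p for these 15 at 0.0286, the smallest that groups of this size allow, so it adds nothing to that count. For the 5 pairs that overlapped, the exact permutation p was 0.743 for AZD against S, 0.200 for S against None and 0.0571 for GA against Glu at 1 h, and 0.143 for S against None and 0.171 for GA against AZD at 24 h.

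Set among all genes tested, HXK1 lay further into the upper tail in glucose than into either tail under the inhibitor. The shares of higher or lower genes count 1 direction only. In Glu against None 0.832% of genes had a higher log2 fold change at 1 h and 3.06% at 24 h. At 24 h the 5th and 95th percentiles of all genes were -3.32 and 1.57 there, so falls reached further than rises. In AZD against None 18.3% were higher at 1 h, and 16.0% were lower at 24 h. In GA against Glu at 24 h 4.35% of genes were lower, and in the 24 h contrast of GA minus Glu with AZD minus None 5.90% were lower. The range between the highest and the lowest of the 5 group means was 2.28 on the log2 scale at 1 h, where the median gene had 1.04 and 10.4% of genes had more. At 24 h the range was 3.38, where the median gene had 1.70 and 15.8% had more. The spread of HXK1 within groups, as the SD of log2 CPM, was 0.39 at 1 h against a median of 0.27 over all genes, and 0.20 at 24 h against 0.21. Without S replicate 1 the value at 1 h was 0.19 against a median of 0.25. By group the coefficient of variation ran from 4.90 to 38.3%, the highest in S at 1 h.

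**Figure D3:**
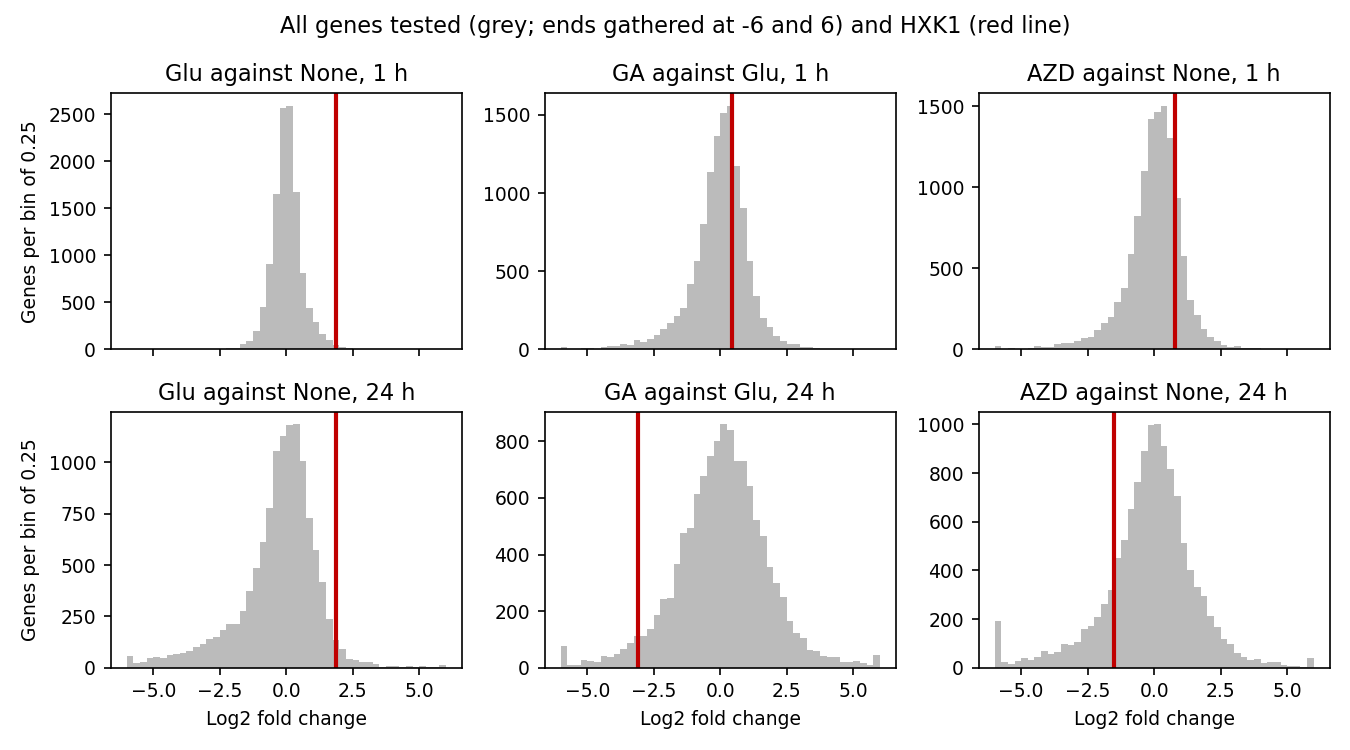
Histograms of log2 fold changes of the 12142 genes tested in 6 comparisons (bins of 0.25, genes beyond -6 or 6 gathered in the end bins), with HXK1 as a red line. HXK1 lies in the upper tail for Glu against None at both times, near the middle for GA against Glu at 1 h and in the lower tail for GA against Glu at 24 h.

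Few genes shared the set of calls that HXK1 showed at 1 h. With the 10 pairs of treatments at 1 h scored as higher, lower or not called, 19 other genes had the same result as HXK1 in each pair, which is 0.156% of those tested. At 24 h 426 other genes, or 3.51%, had the same 10 results. No other gene matched it in all 20 pairs. How many genes share the set of any other gene was not counted, so these shares have no yardstick. Without S replicate 1, 8 pairs were called for HXK1 at 1 h. The counts of matching genes were made after the calls of HXK1 were known and are a description.

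Several genes rose and fell with HXK1 across the treatments. Likeness was measured as Pearson r of log2 CPM over the 38 libraries, after the mean of the 19 libraries of each time was taken away, among 9697 genes with a mean of at least 10 CPM. Group means were not taken away, so differences between treatments enter r, and likeness within a group was not measured. On the 10 group means alone the r of the 5 genes named below was 0.92 to 0.97. The points share library, scaling and depth, so r is given as a description. The median r was 0.01, 5% of genes exceeded 0.66, and 24 genes reached 0.9. The 5 highest were Cz11g15060 (r = 0.97), Cz05g05080 (0.96), Cz09g00260 (0.95), Cz09g21120 (0.94) and Cz01g23260 (0.92). The table gives no product for these identifiers, and none is assigned here.

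The gene most like HXK1, Cz11g15060, was likewise highest in GA at 1 h and in Glu at 24 h. In it None, Glu, AZD and GA stood at 546 ± 41.9, 1804 ± 215, 887 ± 100.2 and 2524 ± 191 CPM at 1 h. At 24 h the same groups stood at 194 ± 17.0, 648 ± 44.8, 102 ± 1.37 and 155 ± 15.4 CPM (SD, n = 4, or 3 for AZD at 1 h and GA at 24 h). Like HXK1, it was low in S replicate 1 at 1 h, at 465 CPM against 815 to 837 in the other S libraries. The gene was chosen by r over these same libraries, S replicate 1 among them, so these likenesses are a description only. Unlike HXK1, it passed the test in GA against AZD at 24 h, with a log2 fold change of 0.60 ± 0.15 (adjusted p = 0.000894). The difference between the 2 genes was not tested.

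The 5 closest genes moved alike in some comparisons and not in others. All 5 rose in Glu against None at both times, by 0.53 to 2.85 on the log2 scale at 1 h and by 0.996 to 2.57 at 24 h, and all 5 fell in AZD against None at 24 h, with log2 fold changes of -0.95 to -0.60. All 5 also fell in GA against Glu at 24 h, with -3.03 to -1.63. In AZD against None at 1 h 2 of the 5 rose, and in GA against Glu at 1 h 3 rose. In GA against AZD at 24 h 3 rose, and in GA against None at 24 h 3 fell, while the others missed the threshold. Over all genes, called in either direction, the shares were 31.1% and 68.8% for Glu against None at 1 h and 24 h. For AZD against None they were 55.7% and 73.4%, and for GA against Glu 58.3% and 76.3%. At 24 h they were 46.5% for GA against AZD and 75.7% for GA against None. The likeness of the 5 genes was what chose them, so these counts support nothing further. The 3 genes with the lowest r were Cz19g08210 (-0.92), Cz04g30120 (-0.89) and Cz06g36090 (-0.89). Cz06g36090 stood at 28.2 ± 3.86 CPM in Glu at 24 h and at 143 ± 18.9 CPM in AZD (n = 4 each), the reverse of HXK1.

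**Figure D4:**
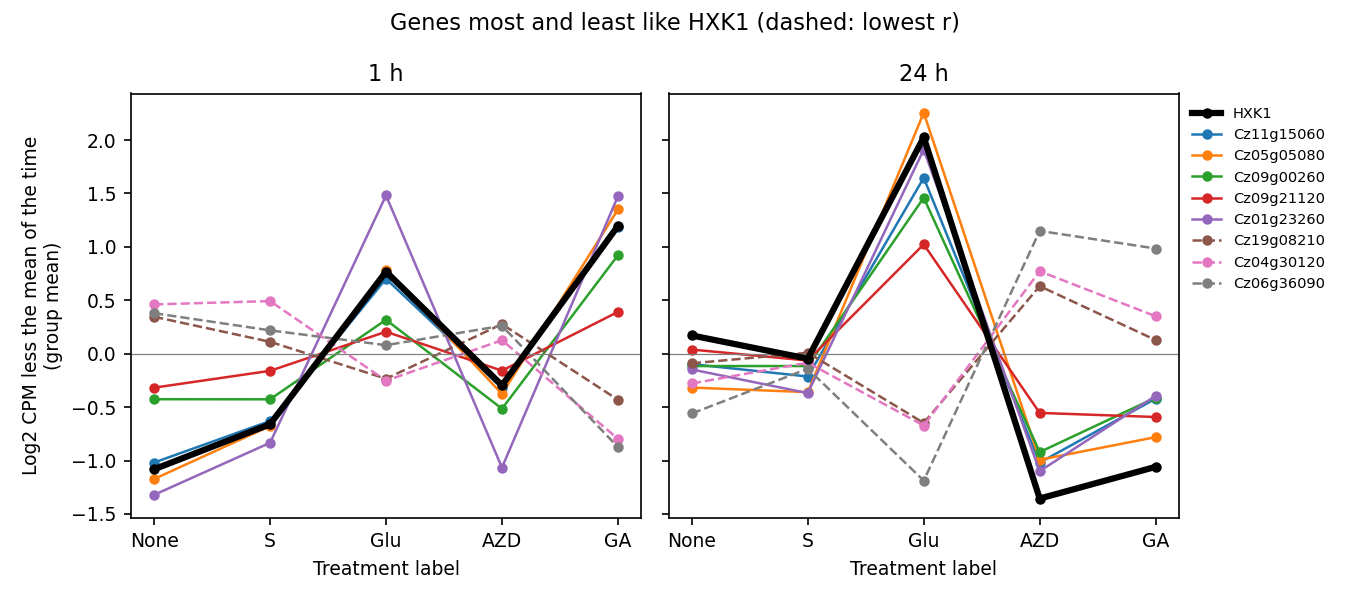
Group means of log2 CPM less the mean of the same time for HXK1 (black), the 5 genes with the highest r (solid) and the 3 with the lowest r (dashed), at 1 h and 24 h. HXK1 and the solid lines peak at Glu at 24 h, where the dashed lines are lowest.

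The genes numbered beside HXK1 moved in several directions. The identifiers of the table that begin with Cz13g were sorted by number, and the 5 before and 5 after Cz13g07170 were taken whether or not they changed. Their places on the genome were not used here, and sharing of reads between overlapping genes or near-identical copies was not checked. Their r with HXK1 ran from -0.75 to 0.60 with a median of 0.40. All 10 were tested, and in Glu against None 3 rose, 1 fell and 6 did not pass at 1 h, while 4 rose, 2 fell and 4 did not pass at 24 h, where 31.1% and 68.8% of all genes were called. In AZD against None 2 rose and 4 fell at each time, where 55.7% and 73.4% of all genes were called. In GA against Glu 4 rose and 4 fell at 1 h, and 3 rose and 4 fell at 24 h, where 58.3% and 76.3% were called. With 10 neighbours these shares lie near those of all genes.

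The nearest identifier on each side shared the early glucose rise of HXK1. Cz13g07150 rose in Glu against None by 1.07 ± 0.13 on the log2 scale at 1 h (adjusted p = 8.28e-08) and by 1.48 ± 0.13 at 24 h (adjusted p = 7.24e-12). In contrast to HXK1, it was lower in AZD than in None at 1 h, with -0.76 ± 0.14 (adjusted p = 3.92e-05), and in GA at 24 h it stood at 243 ± 17.0 CPM (n = 3) against 126 ± 9.05 CPM in AZD (n = 4). Cz13g07180 rose in Glu at 1 h by 1.28 ± 0.20 (adjusted p = 7.14e-06), and at 24 h its difference was 0.22 ± 0.21 (adjusted p = 0.36).

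A pair of identifiers after these went the other way at 24 h. Cz13g07200 stood at 6.10 ± 1.18 CPM in None, 12.2 ± 1.07 in S, 2.80 ± 0.0696 in Glu, 50.1 ± 5.98 in AZD (n = 4 each) and 9.66 ± 0.307 in GA (n = 3). Its 4 AZD libraries lay far above all others of that time, and its log2 fold change in AZD against None was 3.05 ± 0.17 (adjusted p = 2.41e-17). Against S it was 2.04 ± 0.16 (adjusted p = 2.59e-13), and S against None was itself called, at 1.01 ± 0.16 (adjusted p = 0.00114). Cz13g07210 rose by 1.72 ± 0.16 in AZD against None at 24 h (adjusted p = 1.94e-11), and in Glu against None it had a log2 fold change of -2.06 ± 0.17 (adjusted p = 8.21e-13). Its libraries at 24 h held 47.5 to 70.1 CPM in AZD and 19.9 to 33.2 CPM in S. Cz13g07140 was, like HXK1, higher in Glu and lower in AZD at 24 h, and it stood at 4.06 ± 0.945 CPM in GA (n = 3) against 22.8 ± 3.19 CPM in AZD (n = 4).

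**Figure D5:**
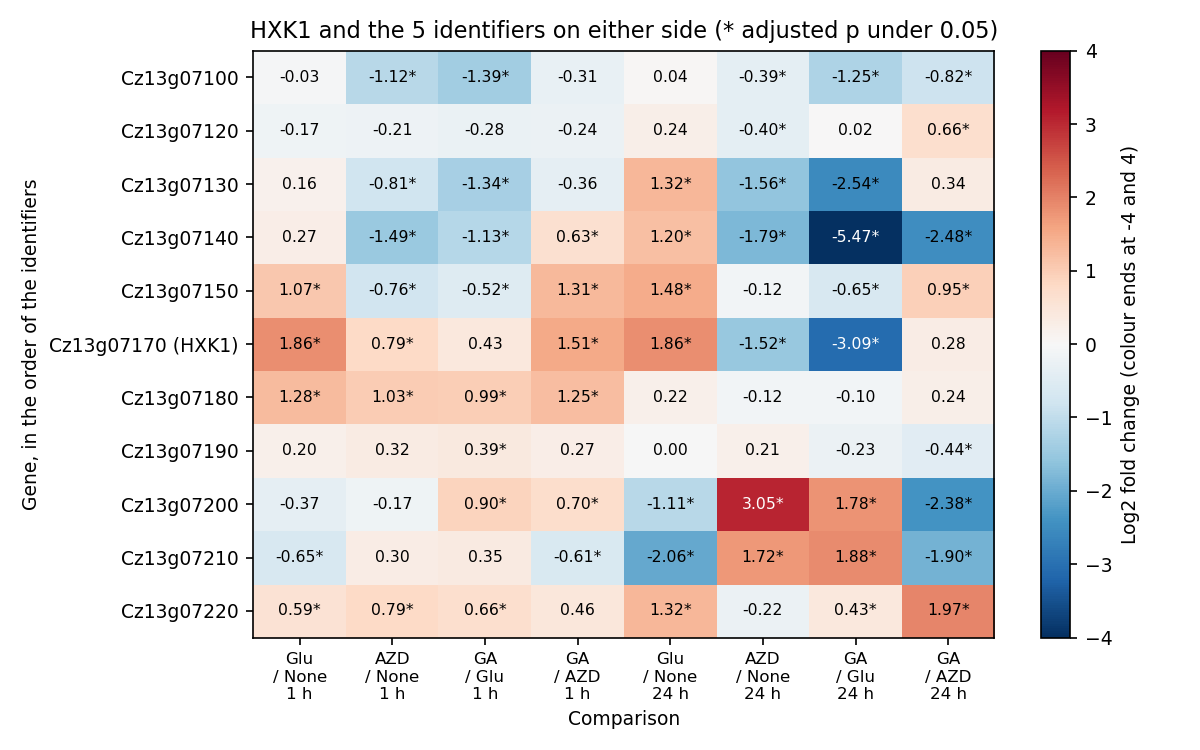
Log2 fold changes of HXK1 and of the 5 identifiers on either side of it, in the order of the identifiers, for 4 comparisons at 1 h and 24 h; colours end at -4 and 4, and an asterisk marks an adjusted p under 0.05. HXK1 has a log2 fold change of -3.09 in GA against Glu at 24 h, where 4 of its 10 neighbours fall and 3 rise.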

How the data were processed

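Per the labels' protocols, RNA of pelleted cells was treated with DNase, libraries were poly(A)-selected, and BBDUK trimmed the read pairs. Salmon and DESeq2 1.46.0 appear, with no role, in the submitters' processing notes. For the genome build, annotation and strand setting, the entry is: not given in the sources used here. Each deposited value is the authors' estimated count of a gene in a library, not scaled for depth, and whether it was corrected for transcript length is not stated. These were rounded to whole numbers, and 0 columns belonged to other samples.

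Genes were kept by filterByExpr (minimum count 10, minimum total 15), which left 12142 of 12459. One edgeR 4.0.16 quasi-likelihood model in R 4.3.3, with TMM factors and a mean per group, was fitted to all 38 libraries across all genes. Within a comparison, p-values were adjusted by Benjamini-Hochberg over all genes, with calls at an adjusted p under 0.05. DESeq2 1.42.0 and limma 3.58.1 (voom) were alternatives, beside other scalings, no filter, the replicate block and leaving out libraries. The SE is the log2 fold change divided by the root of its F statistic, and 95% intervals use it; both are approximate. Counting errors cover counting only. The model was tested on simulated data.

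The gene and the lists were chosen with earlier results of these data known. Named genes are the 5 highest and 3 lowest r and the 5 identifiers on each side. A list of glycolysis genes was not counted, since no table used here pairs identifiers with products. All 54 replicate pairs differed by more than sampling noise. Same-numbered libraries were marked as possibly paired where the correlation of their deviations over genes was over 0.1 for every number. None and AZD at 1 h met this (0.13 to 0.42). In the other 19 pairs of groups at least 1 number did not, with correlations of -0.36 to 0.31. The main model used no pairing. The replicate block added terms for the replicate numbers over all groups of a time.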

Additional observations from a re-analysis of the deposited data

Results flagged for a closer look

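HXK1 in S replicate 1 at 1 h, at 374 CPM, lay far from the other 3 libraries of its group. Its gap to the nearest was 0.844 of the range of the group, past the 95% limit of Dixon's test for 4 samples. Chance passes this limit in about 1 of 20 groups, and 8 groups were tested. The same library stood apart over all genes, and its part in the S values at 1 h is measured by the values given without it.

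Responses of HXK1 differed by a test of the difference itself in 5 cases. The contrast of GA minus Glu with AZD minus None at 24 h was -1.57. Between 24 h and 1 h the log2 response changed by -2.31 for AZD against None, by -3.52 for GA against Glu and by -1.22 for GA against AZD. The contrast of GA minus Glu with AZD minus None changed by -1.22 as well. Time and title prefix cannot be told apart in the last 4.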

How the results depend on the processing

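The 27 log2 differences of HXK1 were recomputed under other scalings, filters, tools and sets of libraries, and 223 of 235 such values kept their direction and their side of the threshold. With library totals alone, AZD against None at 1 h was 0.31 and lost its call, and AZD against S and GA against Glu at 1 h changed sign, to -0.0496 and -0.0861. When S replicate 1 and also Glu replicate 4 at 1 h were left out, S against None at 1 h was 0.79 and GA against Glu 0.43, and both passed. With S in place of None, added after seeing the data, the contrast of GA minus Glu with AZD minus None at 1 h was 0.18 in place of -0.36, and neither passed. The difference of Glu against None between the times lay near 0 and changed sign with DESeq2 size factors (0.15), library totals alone (0.23), no filter (0.16), DESeq2 (0.15), limma-voom (0.0118) and the replicate block (0.0039), without passing in any. The replicate block changed no other call, and AZD against None at 1 h was 0.78 with it (edgeR adjusted p = 0.00524). Leaving out each library in turn kept 256 of 272 values. The ranges of those that changed were -0.10 to 0.38 for AZD against S, 0.40 to 0.78 for S against None and 0.21 to 0.53 for GA against Glu at 1 h, and -0.12 to 0.21 for the difference of Glu against None between the times. The cause of these changes was not tested.

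Among all genes, S against None called 8 at 1 h and 1493 at an unadjusted p under 0.05, against 67 with DESeq2, 1 with DESeq2 size factors or no filter, 3 with library totals, 5 with limma-voom, 29 with the groups compared alone, 0 with edgeR on the libraries of that time, 77 without S replicate 1 and 156 without Glu replicate 4 as well. It called 116 at 24 h, against 254 with DESeq2, 226 with limma-voom, 51 with library totals, 35 with the replicate block, 32 with the groups compared alone, 243 without the pair of libraries named above, and 20 to 176 with each library of its groups left out. Glu against None at 1 h called 3781 genes and 6586 with library totals, and Glu against S at 1 h 3362 and 1479 with the groups compared alone. The contrast of GA minus Glu with AZD minus None at 1 h called 547 genes, against 955 with DESeq2, 118 with the libraries of that time alone, 217 with the groups compared alone, and 297 to 1297 with single libraries left out. Of the 8 genes named by r, 5 were named again with Spearman's rho, 4 with the 10 group means and 7 with DESeq2 size factors.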
